A study of Mus musculus with 48 samples.

Results

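The ABC efflux transporters of the hepatocyte were taken as the 10 genes Abcb1a, Abcb4, Abcc2, Abcg2, Abcg5, Abcg8, Abca1, Abcc3, Abcc4 and Abcc6, chosen by name. All 10 were among the 11275 genes listed for frozen liver (FROZ), and 9 were among the 6673 genes listed for formalin-fixed paraffin-embedded liver (FFPE), where Abcc4 was not listed. The livers came from 24 male B6C3F1 mice, 4 weeks old, given dichloroacetic acid (DCA) in drinking water for 6 days at 0 (vehicle controls), 198, 313 or 427 mg/kg-d. The water held 1.0 g/L at the lowest dose, 2.0 g/L at the middle dose and 3.5 g/L at the highest. Each dose had 6 mice, and each mouse gave 1 FROZ and 1 FFPE library, so that the 48 libraries form 24 pairs. The FROZ RNA came from mixed lobes, whereas the FFPE lysate came from the left lateral and right medial lobes, and no group carried a genetic change. Expression was measured by TempO-Seq, in which neighboring detector oligos that anneal to a transcript are ligated, amplified and counted, and values are log2(CPM + 1), where CPM is the reads of a gene scaled to a common total over the listed genes.

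ABC transporters use ATP to move substrates across a membrane. In the hepatocyte, the canalicular (apical) members pump phospholipid, sterols, conjugates and drugs into bile, and the basolateral (sinusoidal) members return conjugates to blood or load cholesterol onto lipoproteins. Nuclear receptors such as PPAR alpha, LXR, CAR, PXR and FXR, together with the oxidant-responsive factor Nrf2, are known to act on their transcription. Basolateral pumps such as Abcc3 are known to increase when bile flow is impaired. The 6 canalicular members were Abcb1a, Abcb4, Abcc2, Abcg2, Abcg5 and Abcg8, and the 4 basolateral members were Abca1, Abcc3, Abcc4 and Abcc6.

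Reads on listed genes, recovered from the smallest step between low values, ranged from 6.69 to 9.84 M per FROZ library and from 1.83 to 6.01 M per FFPE library. A value of 0 allows up to 3 reads, or at most 0.535 in FROZ and 1.40 in FFPE on the log2 scale, a limit that covers counting error only. To compare libraries, each gene was first centered on its mean over the 24 libraries of a table. Judged on genes that averaged 10 CPM or more, 21 of 24 FROZ libraries correlated best with their own dose group. The exceptions were animals 51 and 54 (198 mg/kg-d), which lay closest to the controls, and animal 73 (313 mg/kg-d), which lay closest to 427 mg/kg-d. Animal 78 (313 mg/kg-d) lay closest to its own dose, but with a mean r of only 0.136, where the other animals of that dose had 0.31 to 0.419. It was the lowest of its dose for Abcb4, Abcc3, Abcg2 and Abcg8, and without it 8 members were still called against controls at 313 mg/kg-d. In FFPE, 18 of 24 libraries correlated best with their own dose group. Their mean r with it was 0.116 to 0.240 at 427 mg/kg-d and 0.001 to 0.106 in controls. At 198 and 313 mg/kg-d the mean r with the own dose was negative in every FFPE library, from -0.067 to -0.023. Centering alone puts unrelated libraries slightly under 0, so these values show little or no likeness within a dose, not opposite profiles. In FFPE, 4 libraries (animals 49, 52 and 54 at 198 mg/kg-d and animal 73 at 313 mg/kg-d) held between 1007 and 1589 genes at 0. Of the hepatocyte markers, 7 of 8 were listed in FROZ, and their summed level was 36166 to 44118 CPM in controls and 27427 to 36127 CPM at 427 mg/kg-d. For cholangiocyte markers, 4 of 8 were listed, with sums of 33.2 to 45.1 CPM in controls and 30.4 to 47.6 CPM at 427 mg/kg-d. The other cell types are given beside the lists of regulators further on. Fewer cells of a type and less RNA per cell cannot be told apart in bulk liver.

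Promoter sequence was available for 8 of the 10 members, from RefSeq on build GRCm38.p6, the same mouse assembly (mm10) to which the reads were aligned. Abcc3 and Abcc6 were the members without it. Abcg5 and Abcg8, the half-transporters that pair to secrete sterols into bile, are transcribed away from each other on chromosome 17. Their starts, at 84683011 on the minus strand and 84683121 on the plus strand, are separated by 109 bases, which are shown because both genes changed together in the data. The stretch at chr17:84683012-84683120 is given on the plus strand, with the GATAA motif (TTATC on the opposite strand) in capitals.
Abcg5-Abcg8: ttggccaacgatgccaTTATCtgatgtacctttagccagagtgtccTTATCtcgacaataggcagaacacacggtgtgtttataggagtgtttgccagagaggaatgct
GATAA, the core letters of a GATA-factor site, occurred 2 times in it, and on either strand 9.36% of 32851 mouse promoters hold it in the same 109 bases before the start. GATAA was also found before Abcb4, Abcc2, 1 start of Abcc4 and 1 start of Abcg2. Abca1, which loads cholesterol and phospholipid onto apolipoprotein A-I, has one of the best known LXR elements, and its 250 bases before the start at chr4:53159896-53160145 are given on the minus strand.
Abca1: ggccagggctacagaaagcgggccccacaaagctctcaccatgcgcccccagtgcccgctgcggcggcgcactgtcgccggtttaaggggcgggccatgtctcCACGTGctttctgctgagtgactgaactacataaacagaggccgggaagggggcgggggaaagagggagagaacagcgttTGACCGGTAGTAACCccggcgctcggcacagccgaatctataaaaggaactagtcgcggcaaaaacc
Capitals mark an E-box (CACGTG, in 6.02% of promoters over 250 bases) and the element GGTTANNNNCGGTCA on the opposite strand, 67 to 53 bases before the start, which 0.0122% of promoters hold. The letters of this element are those of the known Abca1 LXR element itself, so that finding it here was fixed in advance. Exact repeats of AGGTCA spaced by 1 base (DR1, in 0.0335% of promoters) or 4 bases (DR4, in 0.0152%) were not found in the 250 bases before any of the 12 annotated starts of the 8 members, on either strand. Single AGGTCA letters, in 14.0% of promoters, were found before Abcc2 and before 2 of the 3 starts of Abcg2. TGACNNNGC, the core letters of an Nrf2 site, in 10.2% of promoters, was found before Abcc2 and both starts of Abcc4. The Abcb1a start used was 8567091 on chromosome 5, whereas another annotation of the gene begins at 8660077.

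The first comparison asked which members differed from vehicle controls in FROZ liver. At 198 mg/kg-d, none of 10 members was called by limma at a false discovery rate (FDR) under 0.05, beside 1.56% of all genes. None had an unadjusted p under 0.05, beside 1924 of 11275 genes. At 313 mg/kg-d, 8 of 10 were called, beside 26.7% of all genes, and 7 of them rose, beside 20.5% of all genes. At 427 mg/kg-d, 7 of 10 were called and all of those rose, beside 30.1% of all genes called and 22.7% called as increased. A more than 2-fold change at that FDR was found for 2 members at 313 mg/kg-d (2.31% of all genes) and for 4 members at 427 mg/kg-d (3.5% of all genes). The middle value over all FROZ genes was a log2 fold change of 0.07, 0.11 and 0.10 at the 3 doses, so that a general shift of about this size underlies the member values.

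**Figure D1:**
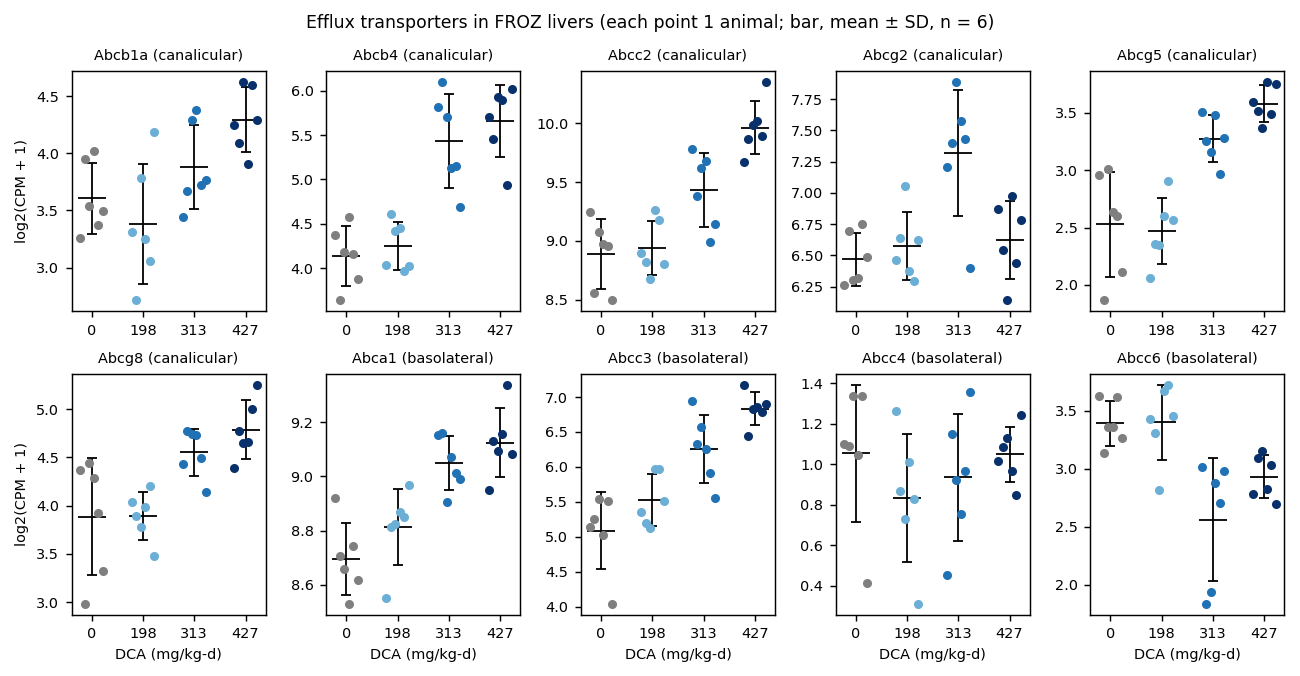
log2(CPM + 1) of the 10 transporters in FROZ liver against DCA dose in mg/kg-d. Each point is 1 animal and the bars give the mean ± SD of 6 animals. For Abcb4 and Abcc3 all 6 animals at 313 and at 427 mg/kg-d lie above all 6 controls, and Abcg2 has its highest animals at 313 mg/kg-d.

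Abcb4, the floppase that delivers phosphatidylcholine to bile, had the largest increase of the canalicular members in FROZ liver. Its lowest, median and highest values were 3.64, 4.17 and 4.58 in controls, 3.97, 4.23 and 4.61 at 198 mg/kg-d, 4.69, 5.43 and 6.10 at 313 mg/kg-d, and 4.94, 5.80 and 6.01 at 427 mg/kg-d. All treated animals of the upper 2 doses were above every control, while the lowest dose overlapped the controls. The log2 fold change was 1.29 (SE 0.21, FDR 3.55e-05) at 313 mg/kg-d and 1.52 (SE 0.21, FDR 2.3e-06) at 427 mg/kg-d, or 2.87-fold. Between these doses the difference of 0.22 was not called (FDR 0.614), whereas the step from 198 to 313 mg/kg-d was (1.18, FDR 0.000323). Abcb4 may share reads with Abcb1a, as described under that gene, and this was not tested.

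Abcc2 is the canalicular pump for bilirubin glucuronides, glutathione conjugates and other organic anions. Its values ran from 8.49 to 9.25 with a median of 8.97 in controls, from 8.68 to 9.26 (median 8.86) at 198 mg/kg-d, from 8.99 to 9.78 (median 9.50) at 313 mg/kg-d and from 9.67 to 10.36 (median 9.94) at 427 mg/kg-d. Only at 427 mg/kg-d were all 6 animals above all controls, and 4 of 6 were so at 313 mg/kg-d. The gene rose by 0.55 (SE 0.14, FDR 0.00592) and 1.08 (SE 0.14, FDR 2.01e-06) on the log2 scale at 313 and 427 mg/kg-d. It was 1 of 2 members that differed between these doses (0.53, FDR 0.0422, beside 3.07% of all genes), a call that was lost when any of animals 74, 77, 78, 98, 99, 100, 101 or 102 was left out, with FDR between 0.0524 and 0.101.

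The sterol half-transporters Abcg5 and Abcg8 are each inactive without the other. Abcg5 ranged from 1.86 to 3.01 (median 2.62) in controls, from 2.06 to 2.90 (median 2.46) at 198 mg/kg-d, from 2.96 to 3.51 (median 3.27) at 313 mg/kg-d and from 3.36 to 3.77 (median 3.56) at 427 mg/kg-d. Abcg8 ranged from 2.98 to 4.44 (median 4.10), from 3.47 to 4.20 (median 3.94), from 4.14 to 4.77 (median 4.61) and from 4.39 to 5.25 (median 4.71) at the same doses. At 427 mg/kg-d, Abcg5 separated from all controls, and Abcg8 had 5 of 6 animals above them. Abcg5 rose by 0.74 (SE 0.17, FDR 0.00168) and then 1.05 (SE 0.17, FDR 2.38e-05), and Abcg8 rose by 0.67 (SE 0.20, FDR 0.0148) and then 0.90 (SE 0.20, FDR 0.00108) at 313 and 427 mg/kg-d. With libraries scaled by their median ratio, Abcg8 at 313 mg/kg-d was no longer called (0.53, FDR 0.0558). Both genes were called between 198 and 313 mg/kg-d (0.80 and 0.66), the second with an FDR of 0.0325 that passed 0.05 when any of animals 51, 54, 74, 75 or 76 was left out.

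Abcb1a is one of the mouse P-glycoproteins, which export hydrophobic drugs, and whether its probe separates it from the close copy Abcb1b was not tested. Reads of Abcb1a and Abcb4 were not whole in FROZ, at 114.78 and 91.22 in animal 4 and 143.67 and 215.33 in animal 6. Whether ambiguous reads were shared out between these 2 genes in counting was not tested, so their separate levels are less certain. Abcb1a was the only member called at 427 mg/kg-d and not at 313 mg/kg-d. Its medians were 3.52, 3.28, 3.74 and 4.27 in rising order of dose, with ranges of 3.26 to 4.02 in controls and 3.91 to 4.63 at 427 mg/kg-d, where 5 of 6 animals exceeded all controls. The gene was called at 427 mg/kg-d (0.69, SE 0.20, FDR 0.0111) and not at 313 mg/kg-d (0.27, SE 0.20, FDR 0.347), and the difference between those doses was itself not called (0.42, FDR 0.288).

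Abcg2, an exporter of urate, porphyrins, sulfate conjugates and many drugs, had its highest level at the middle of the 3 doses. Its range was 6.27 to 6.75 (median 6.40) in controls, 6.30 to 7.05 (median 6.54) at 198 mg/kg-d, 6.40 to 7.89 (median 7.42) at 313 mg/kg-d and 6.14 to 6.98 (median 6.66) at 427 mg/kg-d. Of the animals at 313 mg/kg-d, 5 were above all controls, at 7.20 or more, and animal 78 was at 6.40. The gene rose by 0.85 at 313 mg/kg-d (SE 0.18, FDR 0.000813), was at 0.15 against controls at 427 mg/kg-d (SE 0.18, FDR 0.558), and fell by 0.69 on the log2 scale from 313 to 427 mg/kg-d (SE 0.18, FDR 0.0299). Without animal 78, the rise at 313 mg/kg-d was 1.03. The fall from 313 to 427 mg/kg-d was lost when any of animals 74, 75, 76, 77, 98, 99 or 101 was left out, with FDR between 0.0524 and 0.0881, while the value stayed between -0.88 and -0.58.

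Abcc3, the basolateral exporter of glucuronides and bile acids, had the largest increase of all 10 members at 427 mg/kg-d. Its lowest, median and highest values were 4.04, 5.19 and 5.54 in controls, 5.13, 5.43 and 5.98 at 198 mg/kg-d, 5.56, 6.29 and 6.95 at 313 mg/kg-d, and 6.44, 6.84 and 7.18 at 427 mg/kg-d. The upper 2 doses did not overlap with the controls, and at 198 mg/kg-d only 2 of 6 animals exceeded them. Log2 fold changes were 0.44 (SE 0.22, FDR 0.31), 1.17 (SE 0.22, FDR 0.000247) and 1.74 (SE 0.22, FDR 7.8e-07), the last a 3.35-fold increase. The step from 313 to 427 mg/kg-d, 0.57, was not called (FDR 0.163).

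Abca1 had a small rise and a small spread. It was between 8.53 and 8.92 (median 8.68) in controls, between 8.55 and 8.97 (median 8.84) at 198 mg/kg-d, between 8.91 and 9.16 (median 9.04) at 313 mg/kg-d and between 8.95 and 9.34 (median 9.11) at 427 mg/kg-d. All animals of the highest dose were above all controls, and 5 of 6 were at 313 mg/kg-d. The gene rose by 0.35 (SE 0.08, FDR 0.00157) and 0.43 (SE 0.08, FDR 0.000146), or 1.35-fold at 427 mg/kg-d. With median-ratio scaling, which removes the general shift, these values were 0.21 (FDR 0.0515) and 0.27 (FDR 0.0106), so that the call at 313 mg/kg-d depended on the scaling.

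Abcc6, a basolateral protein whose loss causes ectopic mineralization through its part in ATP release, was the only member called as decreased. Its range was 3.14 to 3.62 (median 3.36) in controls, 2.82 to 3.72 (median 3.44) at 198 mg/kg-d, 1.84 to 3.02 (median 2.79) at 313 mg/kg-d and 2.70 to 3.15 (median 2.93) at 427 mg/kg-d. Every animal at 313 mg/kg-d and 5 of 6 at 427 mg/kg-d were below all controls. It fell by 0.83 on the log2 scale at 313 mg/kg-d (SE 0.19, FDR 0.00145), and the value of -0.46 at 427 mg/kg-d (SE 0.19, FDR 0.0605) missed the threshold. That value was called with median-ratio scaling (-0.60, FDR 0.0163), with array quality weights (FDR 0.0312), with only controls and the highest dose in the fit (FDR 0.00976), and without animal 51, 74 or 75 (FDR between 0.0355 and 0.0463).

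Abcc4, a basolateral exporter of cyclic nucleotides and bile acids, had the fewest reads of the members in FROZ. It held 2 to 15 reads in a library, its group medians were 1.10, 0.85, 0.95 and 1.05, and its log2 fold changes were -0.22, -0.12 and -0.01, none called (SE 0.16, FDR 0.52 to 0.986). That SE is close to the 0.17 of Abcg5, and on this scale a change in so low a gene is understated.

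The second comparison asked where between doses the members changed in FROZ liver. From 198 to 313 mg/kg-d, 7 of 10 members were called, 6 as increased and Abcc6 as decreased, beside 11.7% of all genes. Between 313 and 427 mg/kg-d, Abcc2 and Abcg2 were called, in opposite directions. These comparisons share the libraries at 313 mg/kg-d. In the lower step, Abcc2 was lost without animal 49, 51, 73, 75 or 76, and Abcc3 without animal 49, 50, 51, 73, 74 or 75, with FDR between 0.0506 and 0.0811. Leaving out 1 animal gave 4 to 8 members for the lower step, with the count of 4 reached without animal 51, and 0 to 2 for the upper step, with 0 reached without animal 74, 77, 98, 99 or 101. A linear slope over dose was called for 8 of 10 members, beside 32.2% of all genes. It was steepest for Abcc3, at 0.41 log2 units per 100 mg/kg-d (SE 0.05, FDR 5.46e-07), then Abcb4 at 0.39 (SE 0.06, FDR 5.02e-06), and negative for Abcc6 at -0.16 (SE 0.05, FDR 0.0185). Abcg2 (FDR 0.191) and Abcc4 (FDR 0.972) had no called slope, and that of Abcb1a (0.16, FDR 0.0163) was lost with median-ratio scaling (0.13, FDR 0.0673). Over the members' own ranks, the Jonckheere permutation test gave an unadjusted p under 0.05 for the same 8 members. No share of all genes can be set beside that count.

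The last FROZ comparison set the canalicular beside the basolateral members. At 427 mg/kg-d, 5 of 6 canalicular members rose, with log2 fold changes from 0.15 (Abcg2) to 1.52 (Abcb4) and a median of 0.98, whereas 2 of 4 basolateral members rose, from -0.46 (Abcc6) to 1.74 (Abcc3) with a median of 0.21. The gap was 0.76 between the medians and 0.47 between the means of the lists. At 313 mg/kg-d, the medians were 0.70 and 0.12, with 5 of 6 canalicular members up, 2 of 4 basolateral members up and 1 down. Per animal, the canalicular median minus the basolateral median was -0.02 ± 0.26 (SD, n = 6) in controls and -0.09 ± 0.14 at 198 mg/kg-d. It was 0.55 ± 0.33 at 313 mg/kg-d, and the highest dose gave 0.75 ± 0.14. It was above 0 in 3, 1, 5 and 6 of 6 animals in rising order of dose, and the exception at 313 mg/kg-d was animal 78 (-0.04), without which the gap between the medians of the fold changes at that dose was 0.66 in place of 0.59. In FFPE that gap was -0.40, 0.36 and 1.10 at the 3 doses, or -0.90, 0.14 and 0.83 between means. Its sign in FFPE at 198 mg/kg-d was thus the opposite of that at the higher doses. The FFPE gap used 3 basolateral members, as Abcc4 was not listed, and Abcb1a, Abcg5 and Abcg8 were at 0 in some FFPE controls. With 6 canalicular and 4 basolateral genes (3 in FFPE) chosen by name, this is a description. In FROZ the basolateral median lies between the pair that rose and the pair that did not.

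In FFPE liver, 0 of 9 listed members were called at 198 mg/kg-d (limma), beside 0.0599% of all genes. An unadjusted p under 0.05 was found for 1 member, beside 785 of 6673 genes. Abcc3 was the only member called at 313 mg/kg-d, beside 1.08% of all genes, or 0.809% with a more than 2-fold change. At 427 mg/kg-d, Abcc3 and Abcc2 were called, beside 2.41% of all genes, or 1.81% with a more than 2-fold change. The same 2 members had a called slope over dose, beside 2.17% of all genes. That of Abcc2 (FDR 0.0292) was lost when animal 4, 8, 97, 98, 99, 100, 101 or 102 was left out, with FDR between 0.0572 and 0.0876. Over all FFPE genes the middle value was -0.19, -0.12 and 0.18 at the 3 doses.

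Abcc3 in FFPE had lowest, median and highest values of 6.97, 7.65 and 8.52 in controls, 7.73, 8.43 and 10.38 at 198 mg/kg-d, 8.36, 9.61 and 10.04 at 313 mg/kg-d, and 8.96, 9.62 and 9.75 at 427 mg/kg-d. Animal 53 stood alone at the top of the lowest dose, and the 427 mg/kg-d animals were all above the controls. It rose by 1.75 (SE 0.32, FDR 0.00161) and 1.81 (SE 0.32, FDR 0.000628). Abcc2 ranged from 6.88 to 8.45 (median 8.04) in controls and from 8.98 to 9.71 (median 9.22) at 427 mg/kg-d, with no overlap, and rose by 1.48 (SE 0.29, FDR 0.00149). At 313 mg/kg-d, Abcc2 was at 0.20 (SE 0.29, FDR 0.853) in FFPE.

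Several members were listed at 0 in some FFPE libraries and well above it in others of the same group. Abcg8 was at 0 in 4 of 6 animals at 198 mg/kg-d and in 1 of 6 in controls and at 313 mg/kg-d, while its other libraries held 49 to 619 reads. Abcg5 was at 0 in 2 of 6 controls and 2 of 6 animals at 198 mg/kg-d, and Abcb1a in 2, 2 and 3 of 6 animals of the lower 3 groups, counting values under 0.001 CPM as 0. One more animal at 313 mg/kg-d, animal 75, held 0.01 of an Abcb1a read. None of these genes was at 0 in any library at 427 mg/kg-d, where the FFPE libraries also had the fewest genes at 0, between 65 and 252. The part of this in the differences between FFPE groups was not tested. Abcb1a and Abcb4 held 151.97 and 0 reads in FFPE animal 49, and 0 and 926.69 in animal 74. In animal 5 both were well above 0, at 251.06 and 324.67. Whether reads were shared out between these 2 genes was not tested. The log2 fold changes at 427 mg/kg-d, 2.69 for Abcg5 (SE 1.03, FDR 0.288) and 1.97 for Abcg8 (SE 1.11, FDR 0.728), had standard errors far above those of FROZ (0.17 and 0.20).

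**Figure D2:**
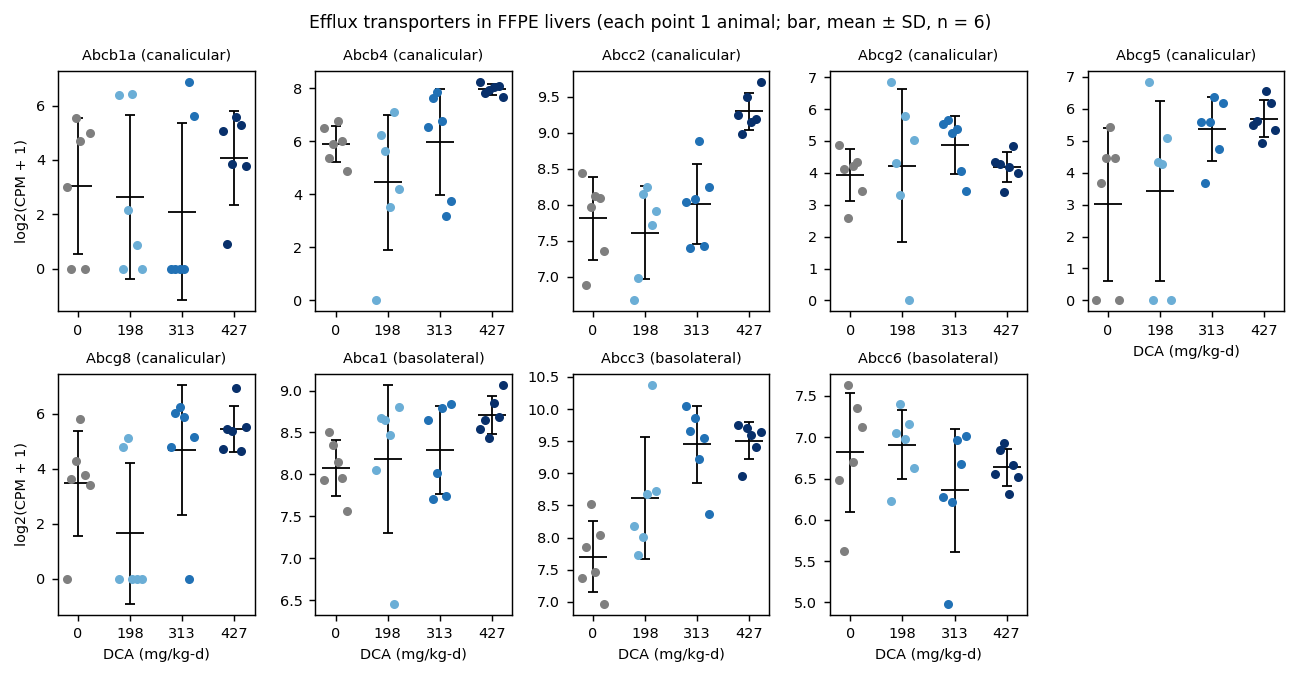
log2(CPM + 1) of the 9 listed transporters in FFPE liver against DCA dose in mg/kg-d. Each point is 1 animal and the bars give the mean ± SD of 6 animals. Points at 0 occur for Abcb1a, Abcb4, Abcg2, Abcg5 and Abcg8 at 0 to 313 mg/kg-d, and Abcb4, Abcc2 and Abcc3 at 427 mg/kg-d lie above all controls.

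Abcb4 in FFPE was between 7.68 and 8.26 at 427 mg/kg-d and between 4.90 and 6.77 in controls, with no overlap. The log2 fold change of 2.07 (SE 0.81) had an FDR of 0.306 in the fit over all 4 doses, where the lowest dose spread from 0 to 7.13. With only controls and the highest dose in the fit the FDR was 2.4e-05, with array quality weights it was 0.00119, and without the 4 libraries with over 1000 genes at 0 it was 0.0482. Abcc6 was at -0.46 (SE 0.34, FDR 0.647) and -0.18 (SE 0.34, not called) at 313 and 427 mg/kg-d, and Abcg2 at 0.95 (SE 0.83, FDR 0.71) and 0.25 (SE 0.83, not called). Abca1 at 427 mg/kg-d was at 0.63 (SE 0.29, FDR 0.536), and was called with array quality weights (0.55, FDR 0.0399) and with only controls and the highest dose in the fit (FDR 0.0224). At 427 mg/kg-d, 3 of 9 members (Abcb4, Abcc2 and Abcc3) had no overlap with controls in FFPE, beside 4.48% of all genes. In FROZ, 5 of 10 members (Abcb4, Abcc2, Abcg5, Abca1 and Abcc3) did so, beside 14.7%, and at 313 mg/kg-d 3 of 10 (Abcb4, Abcc3 and Abcc6), beside 11.5%.

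The third comparison asked whether the response of a member differed between FFPE and FROZ, with each animal's FFPE library set against its own FROZ library. No member was called (0 of 9 at each of 198, 313 and 427 mg/kg-d, limma), beside 0.0303%, 0.0% and 0.0303% of 6591 genes in both tables. Members with an unadjusted p under 0.05 numbered 0, 1 and 0, beside 793, 540 and 157 of the 6591 genes. The exception was Abcc3 at 313 mg/kg-d, whose FFPE response exceeded that of FROZ by 0.58 (SE 0.25, FDR 0.583). For Abcc2 at 427 mg/kg-d the difference was 0.41 (SE 0.25), and for Abcg5 it was 1.64 (SE 1.07). For Abcb1a, Abcb4, Abcg2, Abcg5 and Abcg8 the standard error of the difference was 0.72 to 1.47, so that a 2-fold difference in response was not detectable. For Abca1, Abcc2, Abcc3 and Abcc6 it was 0.25 to 0.41. With so few genes called, the absence of a call does not show equal responses for any member.

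In vehicle controls the level of 6 of 9 members differed between FFPE and FROZ of the same animals, beside 54.2% of genes. Abcc6 was higher in FFPE by 3.42 (SE 0.29, FDR 2.11e-10), Abcc3 by 2.61 (SE 0.18, FDR 4.42e-12) and Abcb4 by 1.77 (SE 0.58, FDR 0.0124), while Abcg2 was lower, at -2.54 (SE 0.51, FDR 0.000167), as were Abcc2 at -1.07 (SE 0.18, FDR 1.38e-05) and Abca1 at -0.62 (SE 0.22, FDR 0.0188). The tables were scaled separately to their own genes, and all 6 calls were also made after both were rescaled to the genes in common. The call of Abca1 was not made in every fit that left out 1 animal, with a highest FDR of 0.0688. FFPE and FROZ also differed in extraction and in the mix of lobes, which overlapped, and these cannot be told apart here from the preservation.

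Animals kept their order between the tables for some members. With dose means removed, Abcc3 in FROZ and FFPE correlated at r = 0.786 over 24 animals (rho 0.865, permutation p = 1e-05 for both, the smallest that 100000 permutations can give, and adjusted p = 9e-05 over 9 members). Without animals 8 and 78, the farthest from the median in FROZ, r was 0.751. Abcc2 gave r = 0.565 (rho 0.555, permutation p = 0.00424, adjusted 0.0191), and 0.503 without animals 77 and 102. The other 7 members had adjusted p of 0.0645 or more, with r from -0.11 for Abcb1a to 0.46 for Abcc6.

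**Figure D3:**
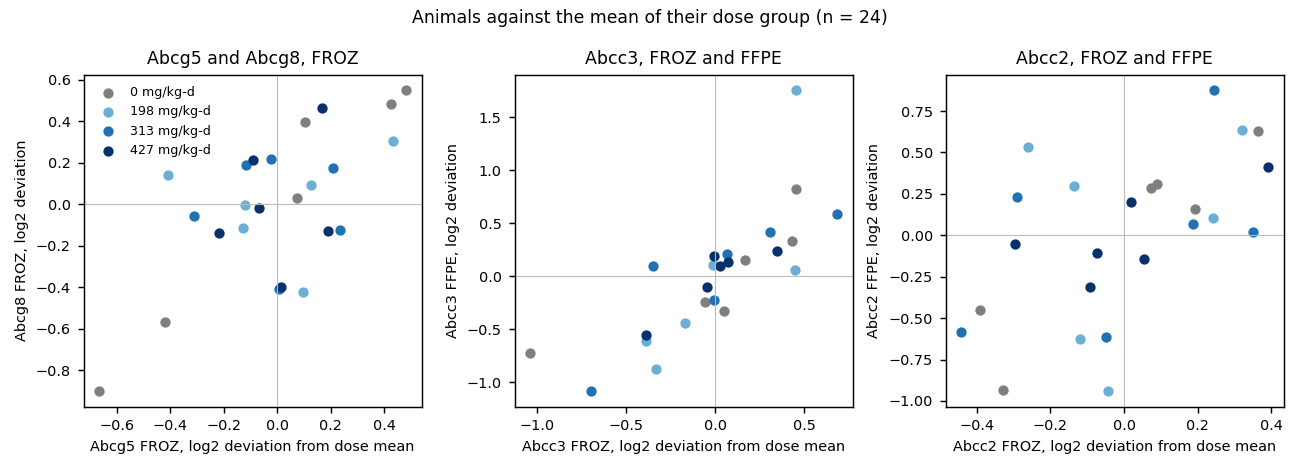
log2 deviation of each animal from the mean of its dose group, for Abcg5 against Abcg8 in FROZ, and for Abcc3 and Abcc2 in FFPE against FROZ. Points are 24 animals colored by dose in mg/kg-d, and r is 0.645, 0.786 and 0.565 from left to right.

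Abcg5 and Abcg8 moved together across FROZ livers. Their deviations from the dose means had r = 0.645 (rho 0.52, permutation p = 0.00076 and 0.00965, adjusted p = 0.00152 and 0.0193 over both tables, n = 24). Without animals 4 and 5, both controls and the farthest in Abcg5, r was 0.426 (permutation p = 0.0478), so that part of the relation rests on that pair. In FFPE, with 4 libraries at 0 for Abcg5 and 6 for Abcg8, r was 0.127 (rho 0.214, permutation p = 0.555 and 0.387), and 0.264 without animals 50 and 54. With dose means removed, Abcc2 in FROZ correlated more highly with each, at r = 0.722 with Abcg5 and 0.712 with Abcg8. The relation was thus not particular to this pair. All pairs share library depth and scaling.

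For each member called at 427 mg/kg-d, the genes with the most similar pattern over the 24 FROZ libraries were sought among 5872 genes that averaged 10 CPM or more. Abcb4 was closest to Hsd17b4 (r = 0.968, and 0.878 with dose means removed) and Dhrs4 (0.959 and 0.820), both peroxisomal enzymes, and to Ppp2r2d (0.957 and 0.814). Abcc3 lay closest to Pex14, a peroxisomal import factor (0.951 and 0.799), Ephx1, the microsomal epoxide hydrolase (0.941 and 0.765), and Aldh3a2, a fatty aldehyde dehydrogenase (0.936 and 0.806). For Abcc2 they were Gpam, the mitochondrial glycerol-3-phosphate acyltransferase (0.930 and 0.780), Rab9 (0.927 and 0.702) and Acadvl, the very long-chain acyl-CoA dehydrogenase (0.911 and 0.632). Acadvl was also closest to Abcg5 (0.925 and 0.667), before Keap1 (0.911 and 0.712) and Pigq (0.911 and 0.763). Abcg8 was closest to Etfdh (0.889 and 0.730), Cyp4f15 (0.877 and 0.700) and Abcc2 (0.868 and 0.712). Abca1 had Krcc1 (0.888 and 0.566), Irak2 (0.883 and 0.586) and Zfp36 (0.882 and 0.654), and Abcb1a had Morc4 (0.829 and 0.646), Zc3h14 (0.813 and 0.655) and Maoa (0.803 and 0.618). These r are maxima over many genes and are given as a description.

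The members were set beside the other ABC genes of the FROZ table. Of 25 others, 2 rose and 5 fell at 427 mg/kg-d, with a median log2 fold change of -0.02 beside 0.10 for all genes, and 4 rose and 3 fell at 313 mg/kg-d. Of all genes, 22.7% rose and 7.33% fell at 427 mg/kg-d, and 20.5% rose and 6.15% fell at 313 mg/kg-d. Those that rose at 427 mg/kg-d were Abcd2 (1.87, SE 0.27, FDR 7.78e-06) and Abcd3 (1.71, SE 0.23, FDR 1.8e-06), which carry fatty acyl-CoA into peroxisomes. The falls were Abca2 (-1.01, FDR 5.35e-06), Abca8a (-1.01, FDR 8.34e-05), Abca8b (-0.55, FDR 0.00521), Abcc9 (-0.50, FDR 0.0103) and Abcb11 (-0.41, FDR 0.00138). Abcb11, the bile salt export pump of the canaliculus, thus fell at the dose at which 5 of 6 canalicular members rose, and at 313 mg/kg-d it fell by 0.48 (FDR 0.000382). Its mean was 10.50 ± 0.14 (SD, n = 6) in controls and 10.09 ± 0.17 at 427 mg/kg-d. In FFPE none of 17 other ABC genes was called at 427 mg/kg-d (limma), and Abcb11 was at -0.28 (SE 0.82).

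**Figure D4:**
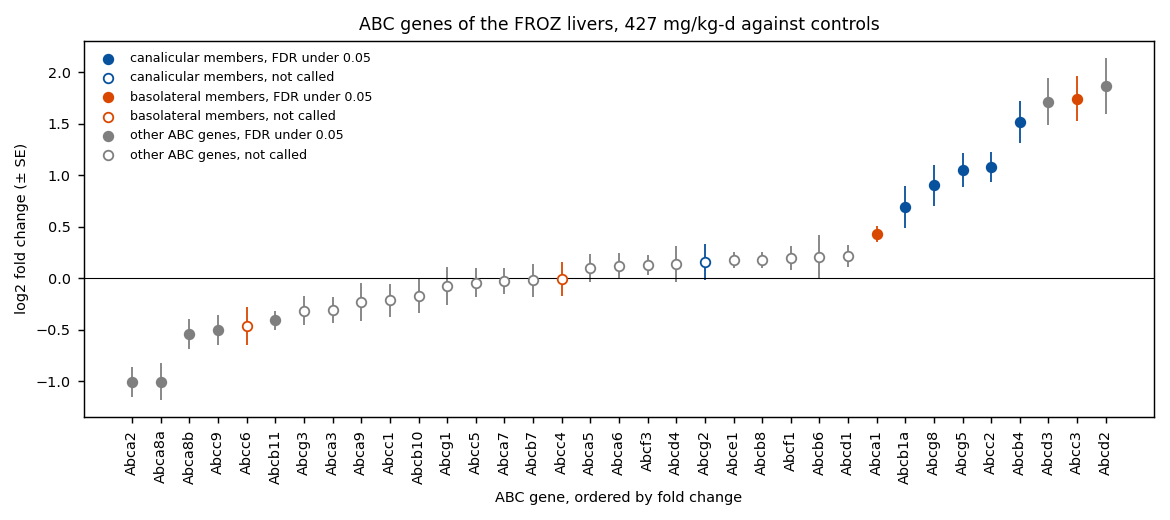
log2 fold change ± SE at 427 mg/kg-d against vehicle controls in FROZ liver for the 35 ABC genes, ordered by value. Canalicular transporters are blue, basolateral orange and other ABC genes gray, filled where the FDR was under 0.05. The filled genes on the right are 7 transporters with Abcd2 and Abcd3, and those on the left run from Abca2 to Abcb11.

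Of the proteins that work beside the transporters, 14 of 16 were listed in FROZ, and 3 rose and 4 fell at 427 mg/kg-d, beside the shares of all genes just given. The largest changes were in Slc51b (-0.88, SE 0.28, FDR 0.0193), a subunit of the basolateral bile acid exporter, Abcb11, Atp7b (0.39, SE 0.14, FDR 0.0365), the canalicular copper exporter, and Rab11a (0.33, SE 0.06, FDR 0.000141), which directs vesicles to the canaliculus. The list's median was -0.01. Of 20 regulators of ABC genes, which were transcription factors and Keap1, 8 rose and 1 fell, with a median of 0.18. Nfe2l2, which encodes Nrf2, rose by 1.54 (SE 0.16, FDR 3.1e-08), and Nr1h4, which encodes FXR, rose by 0.97 (SE 0.08, FDR 1.57e-09). Nr1i3, which encodes CAR, rose by 0.59 (SE 0.14, FDR 0.00246), and Ppard fell by 1.84 (SE 0.21, FDR 2.05e-07).

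Target genes of these receptors, other than the members, are given for 427 mg/kg-d in FROZ, where 22.7% of all genes rose and 7.33% fell. Differences between the lists were not tested. Of 11 listed PPAR alpha targets, 10 rose (median 2.97), led by Cyp4a14 (8.70), Cyp4a10 (7.09) and Acot1 (5.41). Nrf2 targets rose in 5 of 9 (median 0.81), led by Srxn1 (1.58), Gstm3 (1.50) and Nqo1 (1.41). Among LXR targets 4 of 10 rose (median 0.36), and the largest were Scd1 (3.28), Srebf1 (1.73) and Fasn (1.46), all of which act in lipogenesis. CAR and PXR targets gave 3 up and 2 down of 10 (median -0.03), with Gsta1 at 4.78, Gstm1 at 1.52 and Ces2a at -1.32. None of 6 FXR targets rose and 3 fell (median -0.30), namely Slc51b, Fetub (-0.72) and Abcb11. Some genes stand in more than 1 of these lists.

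The markers of liver cell types are read against the same shares of all genes, 22.7% increased and 7.33% decreased at 427 mg/kg-d. Of the hepatocyte markers, 1 of 7 rose (Hnf4a, 0.45) and 1 fell (Trf, -0.75), with Cps1 at -0.43, not called. None of 4 cholangiocyte markers was called, the largest differences being Krt19 at 0.36, Cldn7 at 0.25 and Spp1 at -0.21. Of 8 endothelial markers Stab2 fell (-0.66), beside Clec4g at -0.29 and Lyve1 at 0.23, neither called. Of 6 macrophage markers 3 fell (C1qa -0.53, Adgre1 -0.50 and Csf1r -0.35), with a summed level of 52.7 to 76.7 CPM in controls and 41.1 to 55.7 CPM at 427 mg/kg-d. Of 7 stellate cell markers Dcn fell (-0.41), beside Lrat at 0.44 and Col3a1 at -0.17, not called. The part of cell composition in the transporter values was not tested.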

How the data were processed

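TempO-Seq libraries of 24 paired FROZ and FFPE livers were deposited as 1 table for each preservation type. Per the study's methods and processing notes, the authors aligned reads with STAR 2.6 to mm10, counted them on RefSeq transcripts in Partek Flow by expectation maximization, removed genes of low expression, scaled the rest to CPM in each table, and deposited log2 values with an offset of 1 CPM. A fold change on this scale understates the change of low genes. As the values are on a log2 scale, limma 3.58.1 in R 4.3.3 was used with a mean-dependent prior on the variance, over the 24 libraries of a table, with dose as a group and Benjamini-Hochberg adjustment over all listed genes (FDR under 0.05). FFPE and FROZ were compared through the difference within each animal, since the 2 libraries of an animal are paired by its number. Same-animal libraries correlated at a median of 0.128 (other animals of the same dose -0.0232), and 21 of 24 matched best with their own pair. p-values measure the spread between animals. Values whose low steps were whole reads within 0.1 read (a median of 97.0% in FROZ and 86.9% in FFPE) gave the reads per library. The fits were tested on simulated data with normal noise. Changes were added only to genes of low spread and, within a table, of higher level. That check therefore does not cover FFPE members with values at 0, such as Abcb1a, Abcg5 and Abcg8. The 10 transporters, the gene lists and the tests were chosen with earlier results of these data known. Named genes were all 10 transporters, up to 5 other ABC genes in each direction, up to 4 partners and 4 regulators with the largest called change, up to 3 of each target or marker list, and the 3 genes most correlated with each called transporter. The 2 duplicated gene names of FROZ were not matched between tables. Detector oligo sequences were not used here. Correlations and trends of single genes used 100000 permutations (two-sided).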

Additional observations from a re-analysis of the deposited data

Results flagged for a closer look

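In 6 of 76 groups of 6 animals, 1 animal lay farther from the rest than Dixon's 95% limit for the gap as a share of the group's range, and chance alone flags about 1 in 20 groups. Abcg8 in FFPE at 313 mg/kg-d was 0.0 in animal 77, where the nearest animal was at 4.80. Abca1 was low in FROZ at 198 mg/kg-d in animal 49 (8.55, nearest 8.81) and in FFPE at 198 mg/kg-d in animal 53 (6.46, nearest 8.05). Abcc3 in FFPE at 198 mg/kg-d was high in the same animal 53 (10.38, nearest 8.72). In the FROZ control animal 8, Abcc3 was low (4.04, nearest 5.03), and so was Abcc4 (0.41, nearest 1.04).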

How the results depend on the processing

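Of the counts of called members, those against controls in FROZ at every dose, in FFPE at 198 and 313 mg/kg-d, and for FFPE against FROZ stayed within 1.5 times under every alternative run. No result reversed, but a change of sign was not counted for the canalicular minus basolateral gap at 198 mg/kg-d. That gap was -0.03 in FROZ, so that its sign there is not established. In FFPE at 427 mg/kg-d, 4 members (Abca1, Abcb4, Abcc2 and Abcc3) were called with array quality weights and with only 2 groups in the fit. The FFPE slope was called for 1 member with a variance prior without trend, 4 with weights, and 1 to 2 when 1 animal was left out. By the Jonckheere test 6 members had an unadjusted p under 0.05, with no share of all genes beside it. In FROZ, 4 to 8 members were called from 198 to 313 mg/kg-d when 1 animal was left out. From 313 to 427 mg/kg-d, 0 to 2 were called in this way, and 1 without the variance trend. The canalicular minus basolateral difference at 427 mg/kg-d was 0.47 by means and 0.62 to 0.83 with 1 animal left out in FROZ. In FFPE, without Abcc4, the difference was 1.41 with an offset of 0.1 CPM, against 1.10 in the report and 0.83 by means. The cause was not tested. Without the replicate block that pairs the FFPE and FROZ libraries of an animal, 6 members differed in controls and 0 in response at each dose, so that it changed no call count. Leaving out the 4 FFPE libraries with over 1000 genes at 0 was chosen after seeing the data. FFPE depth and zeros limit Abcb1a, Abcg5 and Abcg8. A possible sharing of reads between Abcb1a and Abcb4 was not tested.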
